A study of Capra hircus with 3 samples.

Results

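Nuclear receptors are transcription factors that read lipids, hormones and foreign compounds and set the genes of the liver accordingly. Of 41 receptor names, 39 were found by gene symbol among the 27271 genes of the goat liver matrices, and RXRA and NR3C2 were not analysed here. Most receptors bind DNA as pairs with a retinoid X receptor or as pairs of their own kind, and they recruit corepressors or coactivators depending on the ligand bound. In the liver they are known for control of bile acid synthesis, fat oxidation, drug breakdown, the daily clock and the identity of the hepatocyte itself.

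The tissue came from 15 female goats aged 3 to 4 years, 5 in each of 3 groups. Con goats were healthy and ate the LRDS diet, NASH goats had non-alcoholic steatohepatitis on the HRDS diet, and NASH-T goats, the steatohepatitis tolerance group, also ate the HRDS diet. The livers of each group were mixed before sequencing, so each group is 1 pooled library, without replicates, and the animals within it cannot be told apart. Goat, handling and group therefore coincide, and no test between groups was possible.

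After filtering, 24503 cells remained (7200 in Con, 8389 in NASH and 8914 in NASH-T) with a median of 2128 to 2472 unique molecular identifiers (UMIs, the count of captured RNA molecules) per cell. Pairs of libraries shared 20 to 23 cell barcodes, 0.263% to 0.281% of the smaller library. Cells were sorted into classes by marker genes, and 10023 were hepatocyte-like (2856, 4057 and 3110). The receptors were kept out of the genes used for clustering. A level is a gene's UMIs in a cell class of 1 library as CPM, counts scaled to 1000000 UMIs of that class. Where 3 levels stand together, the first is Con, the second NASH and the last NASH-T. Ratios carry exact 95% intervals that cover counting error only. A gene is called higher or lower between libraries at a ratio of at least 1.5 in either direction, with an interval that excludes 1 and at least 20 UMIs over both libraries.

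All 39 receptors had at least 20 UMIs over the libraries, and 37 had at least 20 in hepatocyte-like cells. The total ranged from 32 UMIs for NR2F6, an orphan receptor, to 67257 for RORA. Hepatocyte RNA was also counted in other cells: 15 abundant secreted-protein and plasma transcripts stood at a median of 21.5% to 44.6% of their hepatocyte level in macrophage-like, T cell-like, endothelial-like and stellate-like cells. The lowest of these transcripts stood at 1.96% to 5.56% in the same classes, and the highest at 56.3% to 173%. HNF4A, a receptor that defines hepatocytes, stood at 0.762% to 6.23% of its hepatocyte level in macrophage-like, T cell-like and endothelial-like cells. Receptor levels in that range outside hepatocytes are read as background. Levels over that range may also hold hepatocyte RNA, and its part in them was not tested.

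The receptors differed in the cell class where they were highest. Among 7 classes with at least 50 cells in every library, hepatocyte-like cells had the highest level of 11 of 39 receptors in all 3 libraries, where 13.9% of all 15910 genes measured did so. Macrophage-like cells led for 5 (7.82% of all genes), endothelial-like cells for 4 (6.64%), stellate- or fibroblast-like cells for 4 (5.39%), T cell-like cells for RORA alone (2.73%) B cell-like cells for NR4A2 alone (5.89%) and NK-like cells for none (2.46%). For the other 13 receptors the leading class differed between libraries. The count of 11 is a description, since the classes come from the same cells.

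**Figure D1:**
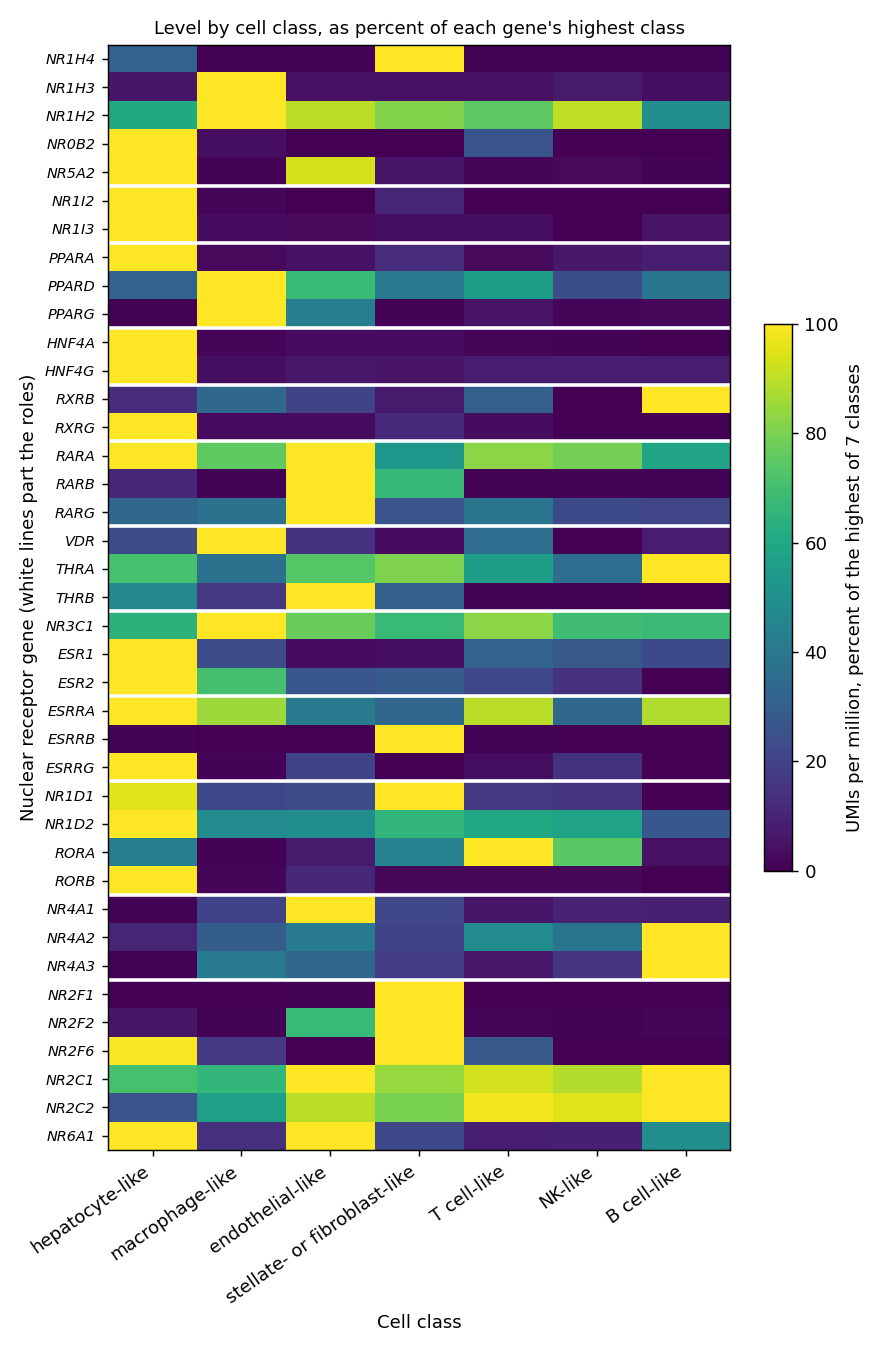
Level of each of 39 nuclear receptors (rows, parted by role) in 7 cell classes (columns), over all 3 libraries, as percent of the CPM in the gene's highest class. Bright cells mark the leading class; NR1H4 is brightest in stellate- or fibroblast-like cells, THRB in endothelial-like cells and RORA in T cell-like cells.

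The bile acid receptor NR1H4 (FXR) restrains bile acid synthesis in hepatocytes. Of the ranked classes, NR1H4 was highest in stellate- or fibroblast-like cells rather than in hepatocytes. Its level there was 3105, 2851 and 3476 CPM, against 949, 1031 and 1017 CPM in hepatocyte-like cells. The ratio of stellate- to hepatocyte-like cells was 3.27 (3.09 to 3.46) in Con, 2.76 (2.64 to 2.90) in NASH and 3.42 (3.27 to 3.57) in NASH-T. No library overlapped between the 2 classes. With every cell thinned to 1000 UMIs, 89.1%, 87.4% and 93.4% of stellate-like cells had an NR1H4 UMI, against 58.2%, 61.2% and 58.8% of hepatocyte-like cells and 1.02% to 1.49% of macrophage-like cells. An unnamed cluster with DCN and ACTA2 among its leading genes, outside the ranking, also scored best on the stellate and fibroblast markers. It held 463.9 CPM of NR1H4 over the libraries, from 171 UMIs, beside 1003 CPM in hepatocyte-like cells. The stellate-like class held 187, 359 and 307 cells, RELN and HGF were among its leading genes, and HNF4A stood at 11.6, 13.6 and 7.77 CPM in it. Between libraries NR1H4 in these cells differed by less than the call limit, with ratios of 0.918 (0.855 to 0.985) for NASH against Con and 1.12 (1.05 to 1.199) for NASH-T against Con.

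The sterol receptors showed another division. NR1H3 (LXR alpha), a sensor of oxidised cholesterol, stood at 212, 229 and 218 CPM in macrophage-like cells and at 14.4, 12.04 and 12.5 CPM in hepatocyte-like cells. The macrophage level was above that of every other of the 7 classes in each library. NR1H2 (LXR beta) was spread over the classes, at 27.8, 24.5 and 24.4 CPM in hepatocyte-like and 40.8, 41.6 and 43.1 CPM in macrophage-like cells. NR0B2 (SHP), a receptor without a DNA-binding domain that acts downstream of NR1H4, was rare at 3.41, 6.17 and 4.80 CPM in hepatocyte-like cells.

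Among the ranked classes, NR5A2 (LRH-1), which drives bile acid genes, was shared by hepatocytes and endothelium. Hepatocyte-like cells held 370, 375 and 388 CPM and endothelial-like cells 301, 376 and 362 CPM. The hepatocyte-like level was the higher in Con (ratio 1.23, 1.08 to 1.42), and the intervals included 1 in NASH and NASH-T. NR5A2 in endothelial-like cells was 81.3% to 100% of its hepatocyte level, while in T cell-like cells it was 1.14% to 2.25%. Its level was higher in the endothelial-like cluster with STAB2, a sinusoidal marker, among its leading genes (350, 410 and 387 CPM) than in the cluster with VWF among them (140, 170 and 217 CPM). Cholangiocyte-like (bile duct lining) cells, outside the ranking, held 414.5 CPM of NR5A2 over the libraries, from 213 UMIs. Over the libraries, hepatocyte-like cells held 377.3 CPM and endothelial-like cells 353.5 CPM.

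Among the ranked classes, the xenobiotic receptors and the hepatocyte nuclear factors were close to limited to hepatocyte-like cells. NR1I2 (PXR) stood at 9.18, 11.9 and 12.01 CPM there and had 0 UMIs in endothelial-like, T cell-like, NK-like and B cell-like cells. NR1I3 (CAR) stood at 79.6, 55.2 and 51.0 CPM. HNF4A, needed for hepatocyte identity, stood at 398, 414 and 380 CPM, and HNF4G at 42.9, 38.8 and 47.6 CPM. HNF4A was also at 276, 295 and 163 CPM in the 116, 43 and 59 cholangiocyte-like cells. These line the bile ducts, and their number in NASH was too small for the ranking. HNF4G stood at 48.7 CPM in them over the libraries, from 25 UMIs, beside 42.7 CPM in hepatocyte-like cells.

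The fatty acid receptors split by cell type. PPARA, which drives fat oxidation, stood at 722, 602 and 528 CPM in hepatocyte-like cells and at no more than 83.9 CPM in any of the other ranked classes. PPARG stood at 154, 169 and 155 CPM in macrophage-like cells and 92.4, 64.7 and 59.8 CPM in endothelial-like cells, against 0.498, 0.455 and 1.00 CPM in hepatocyte-like cells. PPARD was low and broad, at 30.03, 33.2 and 24.3 CPM in macrophage-like cells, its highest class. Within macrophage-like cells PPARG was higher in the cluster led by CPM and GPNMB (285, 207 and 274 CPM) than in the cluster led by MSR1 and TIMD4 (117, 166 and 131 CPM), while NR1H3 was higher in the latter (224, 241 and 231 CPM against 167, 74.1 and 150 CPM).

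Of the retinoid receptors, RARB and RARG were highest in endothelium, and RXRG in hepatocytes. RARB, which binds retinoic acid made from vitamin A, stood at 448, 449 and 363 CPM in endothelial-like cells and 221, 291 and 275 CPM in stellate-like cells, against 48.0, 36.7 and 52.8 CPM in hepatocyte-like cells. RARG was also highest in endothelial-like cells, at 16.5, 17.7 and 13.6 CPM, and RARA stayed under 10 CPM in every ranked class and library. Of the retinoid X partners, RXRG stood at 9.11, 7.95 and 11.01 CPM in hepatocyte-like cells, and RXRB at about 1.00 CPM (0.996, 1.01 and 1.00).

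The thyroid hormone receptor THRB was highest in endothelium among the ranked classes. Endothelial-like cells held 2574, 1922 and 1816 CPM, hepatocyte-like cells 891, 930 and 993 CPM and stellate-like cells 648, 555 and 646 CPM. The endothelial-like level was 2.89 (2.75 to 3.03), 2.07 (1.97 to 2.17) and 1.83 (1.76 to 1.90) times the hepatocyte-like level. Within endothelium the VWF cluster held 5167, 3768 and 4474 CPM and the STAB2 cluster 1770, 1618 and 1369 CPM, so the levels of the 2 clusters did not overlap. THRB in T cell-like cells was 19.7 to 24.1 CPM. Outside the ranking, cholangiocyte-like cells held 1475 CPM of THRB over the libraries, from 758 UMIs. The unnamed cluster with DCN and ACTA2 among its leading genes held 1978 CPM, from 729 UMIs, beside 1993 CPM in endothelial-like cells. The related receptor THRA was low in every class, at 30.3, 29.3 and 32.2 CPM in hepatocyte-like cells.

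**Figure D2:**
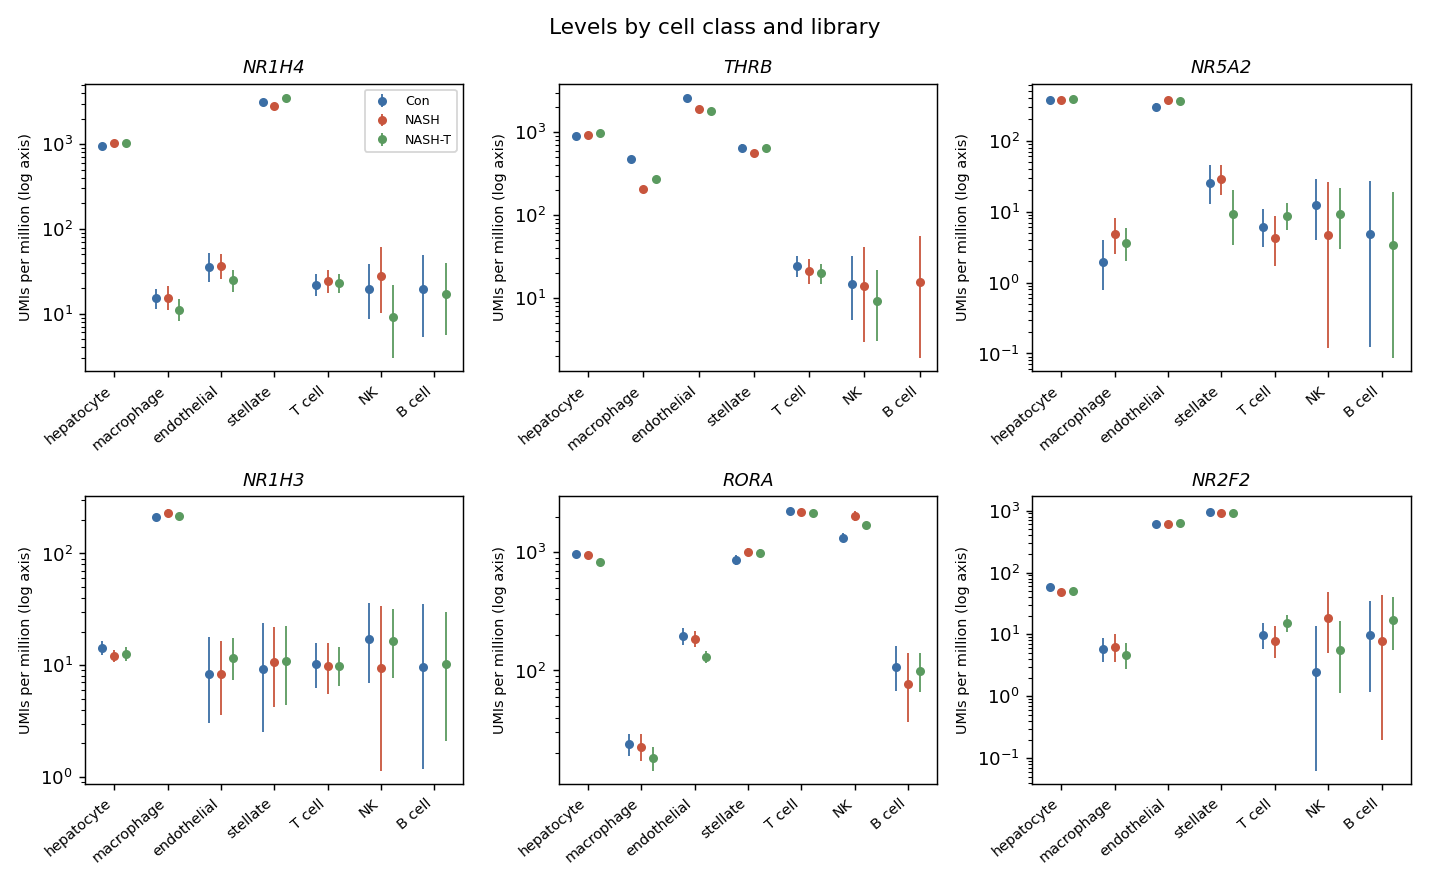
CPM (log axis) of 6 receptors in 7 cell classes; each point is 1 library and bars are 95% Poisson intervals, with points at 0 left out. NR1H4 in stellate-like cells lies at 2851 to 3476 CPM, and its hepatocyte-like points lie between 949 and 1031 CPM.

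Among the steroid receptors, NR3C1, the glucocorticoid receptor, was the most even, at 727, 689 and 713 CPM in hepatocyte-like and 991, 1156 and 1165 CPM in macrophage-like cells, its highest class. ESR1, the oestrogen receptor alpha, stood at 519, 598 and 567 CPM in hepatocyte-like cells and at 13.8, 16.7 and 16.6 CPM in endothelial-like cells. Plasma cell-like cells (115, 49 and 161 cells), outside the ranking, held more ESR1 than hepatocyte-like cells in each library, at 923, 1081 and 751 CPM. ESR2 was scarce, at 7.40, 4.91 and 6.40 CPM in hepatocyte-like cells.

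The oestrogen-related receptors, which have no known natural hormone and are tied to mitochondrial genes, each had a separate place. ESRRB was a stellate-like transcript at 62.7, 42.4 and 68.3 CPM, against 1.21, 0.354 and 0.534 CPM in hepatocyte-like cells. ESRRG was highest in hepatocyte-like cells among the ranked classes, and cholangiocyte-like cells, with few cells, held 42.7, 34.8 and 120 CPM. ESRRA was broad, between 9.32 and 54.5 CPM in the ranked classes.

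Of the clock receptors, RORA was the leading receptor of T cell-like cells (2231, 2193 and 2165 CPM) and NK-like cells (1327, 2039 and 1700 CPM). In B cell-like cells RORA was only 97.0 CPM over the libraries. Its level in macrophage-like cells was 23.7, 22.5 and 18.1 CPM. RORB, which is known mainly from the nervous system, was highest in hepatocyte-like cells at 92.3, 95.5 and 48.3 CPM. NR1D2 (REV-ERB beta), a clock repressor, stood at 86.9, 76.9 and 79.4 CPM in hepatocyte-like cells, and its relative NR1D1 at 4.13, 6.63 and 5.34 CPM.

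Among the ranked classes, the COUP receptor NR2F2 was highest in stellate-like cells and next in endothelium, and NR2F1 lay in stellate-like cells. NR2F2 (COUP-TFII), known for venous identity, stood at 949, 915 and 907 CPM in stellate-like and 608, 598 and 636 CPM in endothelial-like cells, and at 59.4, 48.1 and 50.9 CPM in hepatocyte-like cells. An unnamed cluster of 75, 58 and 62 cells with DCN and ACTA2 among its leading genes held more, at 1568, 1409 and 1524 CPM. NR2F1 stood at 132, 117 and 106 CPM in stellate-like cells and at 0 to 4.14 CPM in the other ranked classes. The orphan receptors NR2C1 and NR2C2 were broad; NR2C2 was lowest in hepatocyte-like cells (70.6, 65.2 and 61.0 CPM). NR6A1 stood at 290, 277 and 282 CPM in hepatocyte-like and 252, 282 and 294 CPM in endothelial-like cells, and the leading class of the 2 differed between libraries. Cholangiocyte-like cells, outside the ranking, held 513.8 CPM of NR6A1 over the libraries, from 264 UMIs.

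Hepatocytes differ along the liver lobule, from periportal cells near the incoming blood to pericentral cells near the central vein. In each library, hepatocyte-like cells with at least 5 UMIs of zone genes (98.1% to 98.6% of them) were ordered by the share of pericentral UMIs among zone-gene UMIs and cut into 3 bands of equal size; no receptor is a zone gene. Summed counts of the pericentral and periportal bands were compared with edgeR's quasi-likelihood test with the library as block, so the 3 libraries, which differ in condition, served as the replicates. Of 32 receptors tested, 4 were higher in the pericentral band, where 7.47% of all 10898 genes were, and 4 in the periportal band, where 8.51% were.

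ESRRG had the steepest pericentral gradient of the receptors. Its level was 2.63, 0.620 and 0.823 CPM in the periportal band, 17.7, 5.89 and 16.3 CPM in the middle band and 50.4, 19.3 and 62.3 CPM in the pericentral band. The bands did not overlap in any library, and the pericentral level in NASH was the lowest of the 3. The log2 difference was 5.01 (SE 0.25; edgeR adjusted p = 1.6e-08).

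ESR1 also rose toward the central vein, from 385, 355 and 402 CPM in the periportal band to 677, 894 and 729 CPM in the pericentral band (log2 difference 1.01, SE 0.11; edgeR adjusted p = 2.4e-04). NR1I3 was 71.8, 46.0 and 42.8 CPM in the periportal and 82.8, 65.8 and 60.7 CPM in the pericentral band (log2 difference 0.41, SE 0.10; edgeR adjusted p = 0.0075). RXRG was 7.001, 3.25 and 6.59 CPM against 8.09, 12.3 and 12.6 CPM (log2 difference 1.05, SE 0.28; edgeR adjusted p = 0.027). The call for NR1I3 was lost in 4 of 9 alternative fits (adjusted p of 0.088 to 0.43 in edgeR or DESeq2), among them the fit without the NASH-T library (0.088). That for RXRG was lost in 5 of 9 (0.051 to 0.21), among them those without NASH (0.15) or without NASH-T (0.16).

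RORB had the steepest periportal gradient of the receptors. Its level was 182, 199 and 129 CPM in the periportal band, 76.6, 71.1 and 15.3 CPM in the middle band and 14.3, 11.7 and 2.70 CPM in the pericentral band. Each library had its highest level in the periportal band, and NASH-T was the lowest library in every band. The log2 difference was -4.17 (SE 0.29; edgeR adjusted p = 0.0017). The direction was the same in each library, with pericentral over periportal ratios of 0.0782, 0.0589 and 0.0209, but the call was lost without the NASH library (log2 difference -4.26; edgeR adjusted p = 0.13) and with 2 bands in place of 3 (log2 difference -2.74; edgeR adjusted p = 0.074).

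NR2F2 was 72.0, 61.3 and 69.0 CPM in the periportal and 45.9, 39.9 and 37.5 CPM in the pericentral band (log2 difference -0.70, SE 0.10; edgeR adjusted p = 1.2e-04). NR4A2, an immediate early receptor that is switched on within minutes by many stimuli, was 17.3, 18.3 and 14.4 CPM against 9.75, 8.80 and 6.97 CPM (log2 difference -0.96, SE 0.17; edgeR adjusted p = 8.3e-04). For both receptors the periportal band was the higher in every library, and the NR4A2 call was lost in 1 of 9 alternative fits, with thinned cells (edgeR adjusted p = 0.071). NR6A1 was 299, 323 and 320 CPM against 284, 243 and 265 CPM (log2 difference -0.24, SE 0.07; edgeR adjusted p = 0.032), and its call was lost in 6 of 9 alternative fits (adjusted p of 0.096 to 0.51 in edgeR or DESeq2), among them those without NASH (0.26) or without NASH-T (0.22). ESRRG, ESR1 and NR2F2 kept their calls in each of the 9 alternative fits.

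Of the other receptors with high levels in hepatocyte-like cells, NR1H4, HNF4A, PPARA and THRB had shallow gradients that missed the threshold. The log2 difference was -0.08 (SE 0.06; edgeR adjusted p = 0.46) for NR1H4, -0.12 (SE 0.06; edgeR adjusted p = 0.26) for HNF4A, -0.06 (SE 0.06; edgeR adjusted p = 0.63) for PPARA and 0.22 (SE 0.07; edgeR adjusted p = 0.061) for THRB. By library the pericentral over periportal ratio of THRB was 1.04 (0.995 to 1.09), 1.11 (1.07 to 1.155) and 1.33 (1.27 to 1.38).

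**Figure D3:**
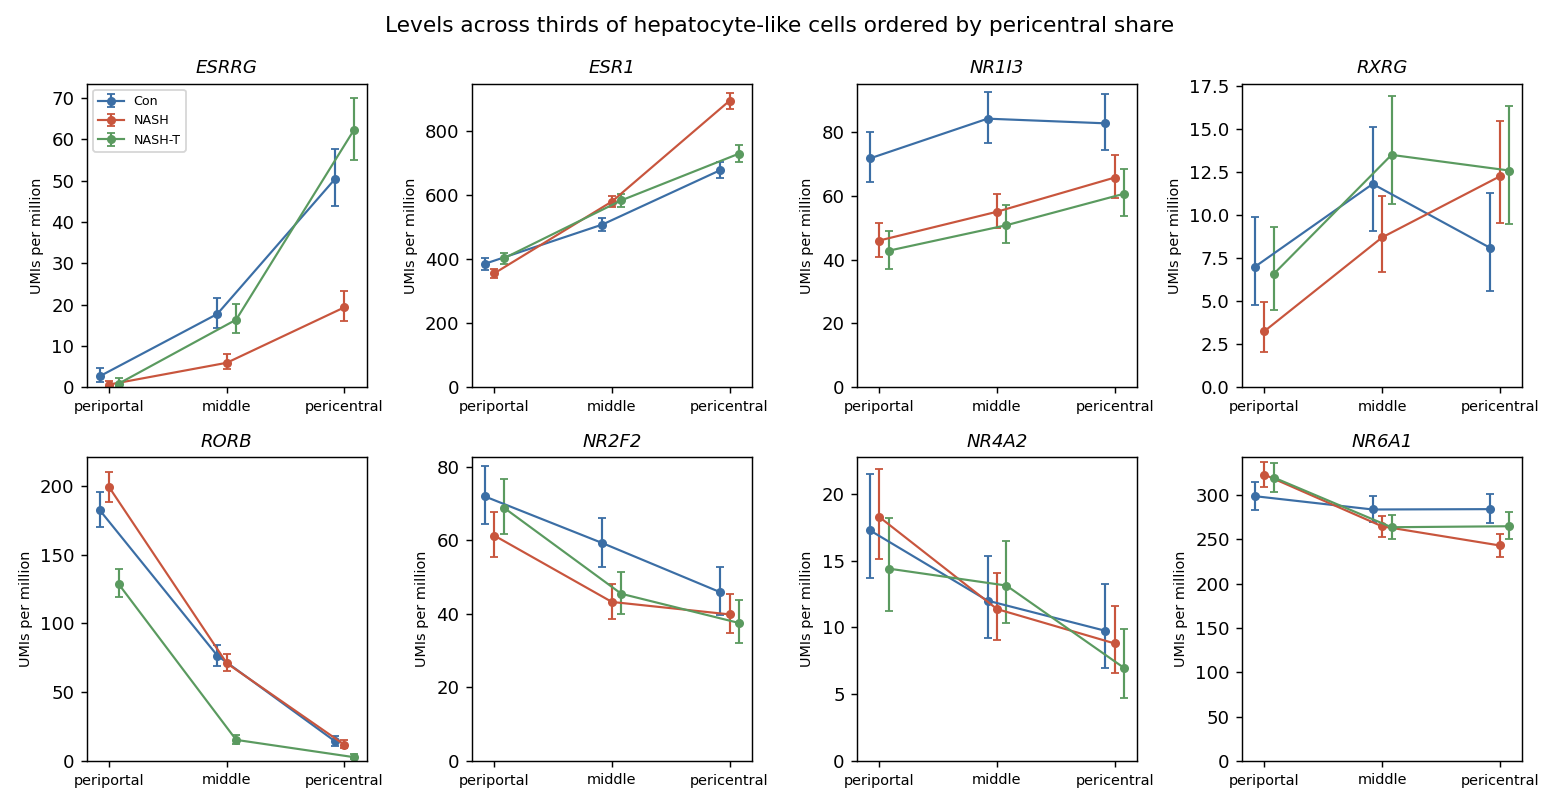
CPM of the 8 receptors called between zones, in the periportal, middle and pericentral bands of hepatocyte-like cells; each line is 1 library and bars are 95% Poisson intervals. ESRRG climbs to 50.4, 19.3 and 62.3 CPM in the pericentral band, and RORB drops to 14.3, 11.7 and 2.70 CPM there.

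Between the livers, most receptors in hepatocyte-like cells differed by less than 1.5-fold. In NASH against Con, 3 of 35 receptors measured were higher (5.21% of all genes measured) and 3 were lower (11.2%). In NASH-T against Con, none of 36 was higher (4.49%) and 2 were lower (8.02%). In NASH-T against NASH, 1 of 35 was higher (7.95%) and 3 were lower (5.04%). The median log2 ratio of the receptors was -0.07, -0.01 and 0.01 in these comparisons, beside -0.12, -0.10 and 0.00 over all genes, so as a group the receptors lay near the other genes. The comparisons share libraries. Hepatocyte-like cells of NASH lay largely in 2 clusters of their own, led by FASN (37.3% of them) and by CYP7A1 (31.7%), each of which held 0.245% to 1.54% of this class in Con and in NASH-T.

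ESRRG was lower in NASH. Its level was 22.6 CPM in Con, 8.10 CPM in NASH and 24.9 CPM in NASH-T, from 318, 160 and 373 UMIs. NASH stood apart from the other libraries, with a ratio of 0.358 (0.294 to 0.434) to Con and 3.07 (2.55 to 3.72) for NASH-T against NASH, while NASH-T against Con was 1.10 (0.945 to 1.28). The difference was present in the middle band (NASH against Con 0.332, 0.227 to 0.481) and in the pericentral band (0.383, 0.302 to 0.484). In the 3 clusters that every library fills it was 0.464 (0.347 to 0.610), and in the FMO1 and LGR5 cluster alone 0.670 (0.4998 to 0.885). With limits on the pericentral share common to the libraries, a setting added after the data were seen, it was 0.502 in the middle and 0.447 in the pericentral range.

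RORB was lower in NASH-T. Its level was 92.3, 95.5 and 48.3 CPM, from 1297, 1888 and 724 UMIs. The ratio was 0.523 (0.477 to 0.574) to Con and 0.505 (0.463 to 0.551) to NASH, and NASH against Con was 1.04 (0.965 to 1.11). By band, NASH-T against Con was 0.706 (0.636 to 0.784) in the periportal, 0.199 (0.156 to 0.252) in the middle and 0.189 (0.0925 to 0.355) in the pericentral band. With common limits on the pericentral share these ratios were 0.661, 0.123 and 0.0563, and NASH against Con was 0.602 in the middle and 0.520 in the pericentral range.

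The position of NASH for RORB turned on which clusters were compared. RORB was among the leading genes of the FASN cluster, where NASH held 198 CPM from 1512 cells, and that cluster gave 850 of the 1333 cells of the NASH periportal band. In the HAL and GLS2 cluster RORB stood at 214, 40.8 and 142 CPM, and in the FMO1 and LGR5 cluster at 50.2, 11.4 and 4.42 CPM. Over the 3 clusters that every library fills, NASH-T against NASH was 1.90 (1.59 to 2.28), in the opposite direction to the value over all hepatocyte-like cells. The clusters differed: the ratio was 3.47 (2.82 to 4.32) in the HAL and GLS2 cluster, 0.388 (0.240 to 0.630) in the FMO1 and LGR5 cluster and 0.879 (0.442 to 1.82) in the shallow cluster led by APOE and VTN. NASH-T against Con was lower in each of these clusters: 0.664 (0.595 to 0.740) in the HAL and GLS2 cluster, 0.0880 (0.0623 to 0.121) in the FMO1 and LGR5 cluster and 0.297 (0.186 to 0.456) in the APOE and VTN cluster.

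NR1I3 was lower in both HRDS livers, at 79.6, 55.2 and 51.0 CPM from 1119, 1090 and 765 UMIs. The ratio to Con was 0.641 (0.584 to 0.704) in NASH-T, past the call limit, and 0.693 (0.637 to 0.754) in NASH, short of it. In the periportal band the ratios to Con were 0.641 (0.546 to 0.752) for NASH and 0.597 (0.499 to 0.712) for NASH-T, and in the pericentral band 0.794 (0.685 to 0.921) and 0.733 (0.623 to 0.862). With every cell thinned to 1000 UMIs the NASH-T ratio was 0.783 (0.634 to 0.965), and scaled to the median ratio 0.687 (0.626 to 0.754), each short of the limit.

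PPARA also stood lower in both HRDS livers without reaching the limit, with ratios to Con of 0.833 (0.811 to 0.855) in NASH and 0.731 (0.710 to 0.753) in NASH-T. The NASH-T ratio was 0.716, 0.750 and 0.724 in the periportal, middle and pericentral bands, so the difference was of like size across the lobule.

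The remaining calls rested on few UMIs. NR0B2 was higher in NASH than in Con (48 and 122 UMIs; ratio 1.81, 1.28 to 2.58), as were NR1D1 (58 and 131 UMIs; 1.61, 1.17 to 2.23) and VDR, the vitamin D receptor (58 and 127 UMIs; 1.56, 1.13 to 2.16). Within the clusters that every library fills, the ratios of NR0B2, NR1D1 and VDR were 1.56 (0.961 to 2.51), 1.17 (0.713 to 1.86) and 1.31 (0.822 to 2.05), with intervals that include 1. NR1D1 and THRA overlap on opposite strands in mammals, and no source states that counting used strand, so reads of the pair may not be told apart. VDR was lower in NASH-T than in NASH (49 UMIs; 0.508, 0.358 to 0.712), as was RARA (61 against 130 UMIs; 0.619, 0.449 to 0.845). The RARA ratio was 0.691 (0.448 to 1.08) within the clusters that every library fills and 0.730 (0.370 to 1.39) with thinned cells, with intervals that include 1. ESR2 was lower in NASH than in Con (97 and 104 UMIs; 0.664, 0.498 to 0.884), and its ratio was 0.935 within the clusters that every library fills. ESRRB, a stellate-like transcript, had 17 and 7 UMIs in hepatocyte-like cells of Con and NASH (0.293, 0.103 to 0.743). The summed level of 14 stellate markers in hepatocyte-like cells was 30.7, 36.9 and 36.1 CPM, with 2, 0 and 2 of them at 0. Their part in the ESRRB result was not tested.

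**Figure D4:**
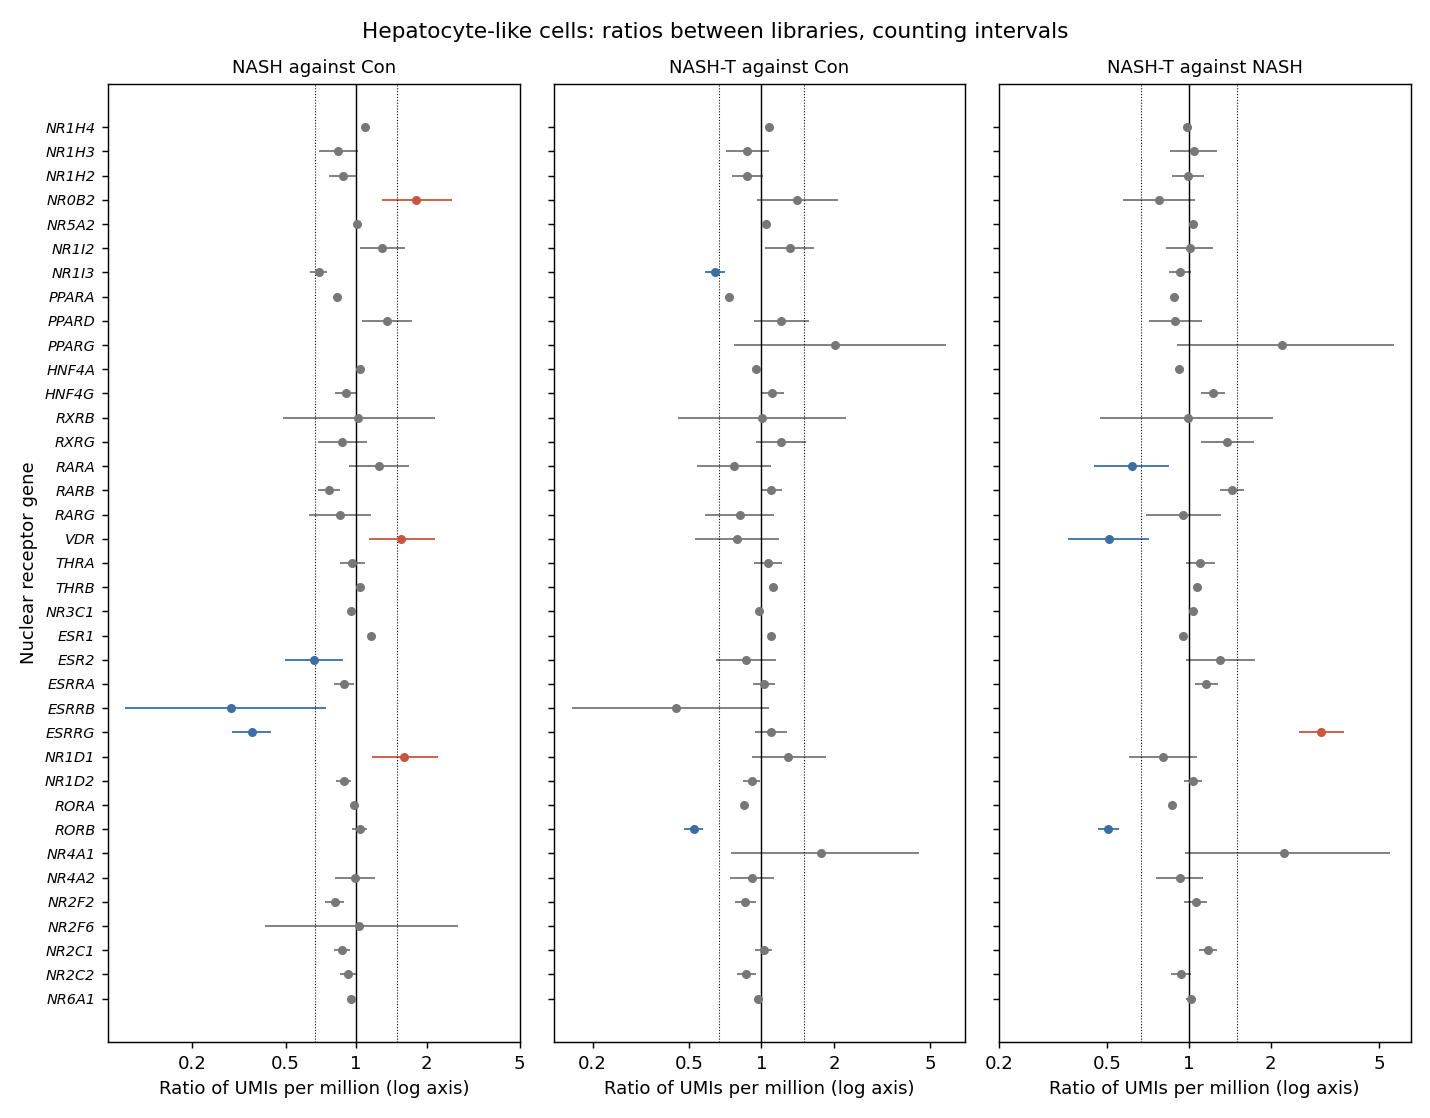
Ratio between libraries (log axis) of each receptor measured in hepatocyte-like cells, in 3 comparisons, with 95% counting intervals; dotted lines mark 1.5-fold, and red and blue points are those called higher and lower. ESRRG stands at 0.358 in NASH against Con, and RORB at 0.523 in NASH-T against Con; most points lie between the dotted lines.

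Genes that the receptors are known to control were read in the same hepatocyte-like cells. Of 10 liver X receptor targets measured, 3 were higher and none lower in NASH against Con (median log2 ratio 0.42, all genes -0.12). Over all genes measured in hepatocyte-like cells, 5.21% were higher and 11.2% lower in NASH against Con, 4.49% and 8.02% in NASH-T against Con and 7.95% and 5.04% in NASH-T against NASH. SCD, a fatty acid desaturase, stood at 2.28, 50.0 and 17.9 CPM, FASN, the fatty acid synthase, at 29.7, 425 and 83.3 CPM, and LPCAT3, a phospholipid enzyme, at 60.5, 131 and 93.7 CPM. All 3 were highest in NASH and intermediate in NASH-T, while NR1H3 and NR1H2 were not called in any comparison. FASN leads a cluster that NASH fills. The part of the receptors or of other factors in these levels was not tested.

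Of 19 PPARA targets measured, 4 were higher and 1 lower in NASH against Con, and 6 were higher and none lower in NASH-T against Con (median log2 ratio 0.27, all genes -0.10). The largest in NASH-T were PLIN2, a lipid droplet coat (7.75, 12.2 and 29.3 CPM), VNN1, a pantetheinase (73.6, 90.9 and 171 CPM), and PDK4, which spares glucose (176, 140 and 314 CPM). In NASH the largest were FABP1, a fatty acid carrier (74.5, 292 and 124 CPM), FGF21, a fasting hormone (23.4, 48.7 and 29.4 CPM), and PLIN2. ANGPTL4, which inhibits lipoprotein lipase, was the target called lower in NASH (1.56, 0.405 and 0.8004 CPM), and the median log2 ratio of the list there was 0.07.

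Of 12 bile acid receptor targets measured, CYP7A1, the rate-limiting enzyme of bile acid synthesis, was higher (208, 424 and 178 CPM) and SDC1 lower (5.34, 3.49 and 3.34 CPM) in NASH against Con. ABCB11, the bile salt export pump, stood at 1199, 1698 and 1105 CPM and was called lower in NASH-T against NASH. CYP7A1 leads the other NASH cluster. Of 7 xenobiotic receptor targets measured, ABCC3, an efflux pump, was lower in NASH (11.1, 4.35 and 7.40 CPM), and CYP2B6, a drug-metabolising enzyme, was higher in NASH-T (159, 192 and 328 CPM), where NR1I3 was lowest. ALAS1, the first enzyme of haem synthesis, was lower in NASH-T (194, 166 and 114 CPM).

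Of 11 glucocorticoid receptor targets measured, 3 were lower and none higher in NASH against Con (median log2 ratio -0.33), where 11.2% of all genes were lower. FKBP5, a chaperone of the receptor, stood at 51.6, 19.3 and 20.8 CPM, ZBTB16 at 701, 461 and 491 CPM and KLF9 at 118, 77.5 and 78.7 CPM. In NASH-T against Con 3 were higher and 3 lower: DUSP1, a phosphatase (34.2, 28.6 and 94.5 CPM), SGK1, a kinase (87.0, 119 and 194 CPM), and PDK4 were higher, and FKBP5, PER1 (135, 91.9 and 70.8 CPM) and TFCP2L1 were lower. NR3C1 was not called in any comparison, with ratios of 0.949 to 1.03.

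Of 15 clock genes measured, 1 was higher and 2 lower in NASH against Con and none was higher and 4 lower in NASH-T against Con, where 11.2% and 8.02% of all genes were lower. The 2 of 15 in NASH is near the share over all genes. PER2, a repressor of the clock, stood at 117, 60.1 and 58.4 CPM, BHLHE41 at 8.61, 2.94 and 2.80 CPM and DBP, an output factor, at 64.7, 43.5 and 33.6 CPM. NR1D2 was not called (ratios of 0.884 and 0.913 to Con). The time of day of sampling is not given in the sources used here.

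Of 9 thyroid hormone targets measured, 3 were higher and 2 lower in NASH against Con. DIO1, which activates thyroid hormone, stood at 119, 209 and 163 CPM, ME1, the malic enzyme, at 8.54, 20.4 and 27.8 CPM, and THRSP, a lipogenic protein, at 0.285, 5.72 and 1.93 CPM. BCL3 was lower in NASH (47.5, 28.2 and 42.8 CPM). THRB in hepatocyte-like cells had ratios of 1.04 (1.02 to 1.07) and 1.11 (1.09 to 1.14) to Con.

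The other lists held few calls. Of 16 HNF4A targets measured, 1 was called in NASH against Con, CYP27A1, a sterol hydroxylase, at 270, 139 and 207 CPM, and none in the other comparisons. None of 12 coactivators was called in any comparison, and of 8 corepressors HDAC3 was called higher in NASH (2.21, 3.49 and 2.20 CPM). Of 8 retinoid-handling genes measured, RETSAT (74.1, 161 and 111 CPM) and LRAT (4.84, 7.84 and 8.74 CPM) were higher in NASH against Con.

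In macrophage-like cells, 1 of 26 receptors measured was higher (3.3% of all genes measured) and 2 were lower (5.49%) in NASH against Con. In NASH-T against Con 2 of 27 were higher (3.41%) and 1 was lower (5.57%), and in NASH-T against NASH 4 of 27 were higher (4.63%) and 1 was lower (3.94%).

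THRB in macrophage-like cells was highest in Con, at 480, 206 and 276 CPM from 1741, 558 and 1144 UMIs. The ratio to Con was 0.428 (0.389 to 0.472) in NASH and 0.574 (0.532 to 0.619) in NASH-T. The order was the same in each macrophage cluster: 432, 205 and 252 CPM in the MSR1 and TIMD4 cluster and 653, 212 and 396 CPM in the CPM and GPNMB cluster. The summed level of 15 hepatocyte markers in macrophage-like cells was 2351, 2635 and 2691 CPM and that of 15 endothelial markers 710, 877 and 897 CPM, lowest in Con in each case. Endothelial-like cells themselves held 13380, 14130 and 14290 CPM of these endothelial markers, and their THRB was also highest in Con (2574, 1922 and 1816 CPM), while in hepatocyte-like cells THRB was lowest in Con. The part of RNA from these cells in the macrophage result was not tested.

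Within macrophage-like cells, the immediate early receptors NR4A1 and NR4A3 were highest in the NASH-T library. NR4A1 (NUR77) stood at 8.82, 14.7 and 28.7 CPM, with a ratio of 3.25 (2.18 to 4.96) for NASH-T against Con and 1.95 (1.35 to 2.86) against NASH. NR4A3 (NOR1) stood at 6.61, 4.79 and 38.8 CPM, with ratios of 5.86 (3.80 to 9.42) and 8.10 (4.60 to 15.5). The intervals of NASH-T lay above those of both other libraries.

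NR4A3 lay mostly in the CPM and GPNMB cluster, at 28.0, 42.4 and 196 CPM from 22, 8 and 134 UMIs, with 0.703, 1.98 and 7.78 CPM in the MSR1 and TIMD4 cluster. At a finer clustering (resolution 1.2) a CPM and GPNMB cluster held 261, 122 and 103 macrophage-like cells, and a second cluster, with CD83, FOS and IL1B among its leading genes, held 42, 37 and 253. The livers thus fill these macrophage states unequally, and a higher level per cell and a different mix of cells cannot be told apart here. An unnamed cluster of 178, 244 and 147 cells led by TBC1D9 and PLBD1 held 65.5, 42.9 and 264 CPM (NASH-T against Con 4.03, 2.57 to 6.50). In that cluster 1 of 14 receptors was higher (5.35% of all genes measured) and 1 lower, THRB (5.44%), in NASH-T against Con, and NR4A3 was the 1 of 18 higher in NASH-T against NASH (5.09%), with NR1H4 and THRB lower (5.01%). In NASH against Con, 3 of its 18 receptors were higher (4.71%), NR1H4, PPARG and ESR1, and NR4A2 was lower (4.86%). NR1H4 in that cluster had 2, 19 and 3 UMIs (5.04, 35.4 and 8.98 CPM), no higher than the background range given above. NR4A2 in macrophage-like cells was 36.1, 30.6 and 41.4 CPM and was not called. Of 6 immediate early genes outside the receptor family measured in macrophage-like cells, 4 were higher and none lower in NASH-T against Con (median log2 ratio 1.66, all genes -0.03): FOS (41.6, 94.3 and 267 CPM), JUN (57.3, 107 and 221 CPM), BTG2 (32.0, 42.4 and 118 CPM) and DUSP1 (137, 176 and 372 CPM). In hepatocyte-like cells 3 of 8 were higher, FOS, DUSP1 and ATF3. Per the labels' protocols, tissue was digested with trypsin at warm temperature before capture, and its part in these levels was not tested.

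The other macrophage calls were of NR6A1, VDR and HNF4A. NR6A1 stood at 44.9, 21.4 and 41.9 CPM (NASH against Con 0.476, 0.346 to 0.646), and within the MSR1 and TIMD4 cluster alone the ratio was 0.703 (0.484 to 1.01). VDR was higher in NASH-T than in NASH (14.7 and 23.8 CPM; 1.62, 1.11 to 2.40). NR1H3, PPARG and NR3C1 were not called, with ratios of 0.914 to 1.18. HNF4A had 22 and 12 UMIs in NASH and NASH-T, within the background range given above.

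**Figure D5:**
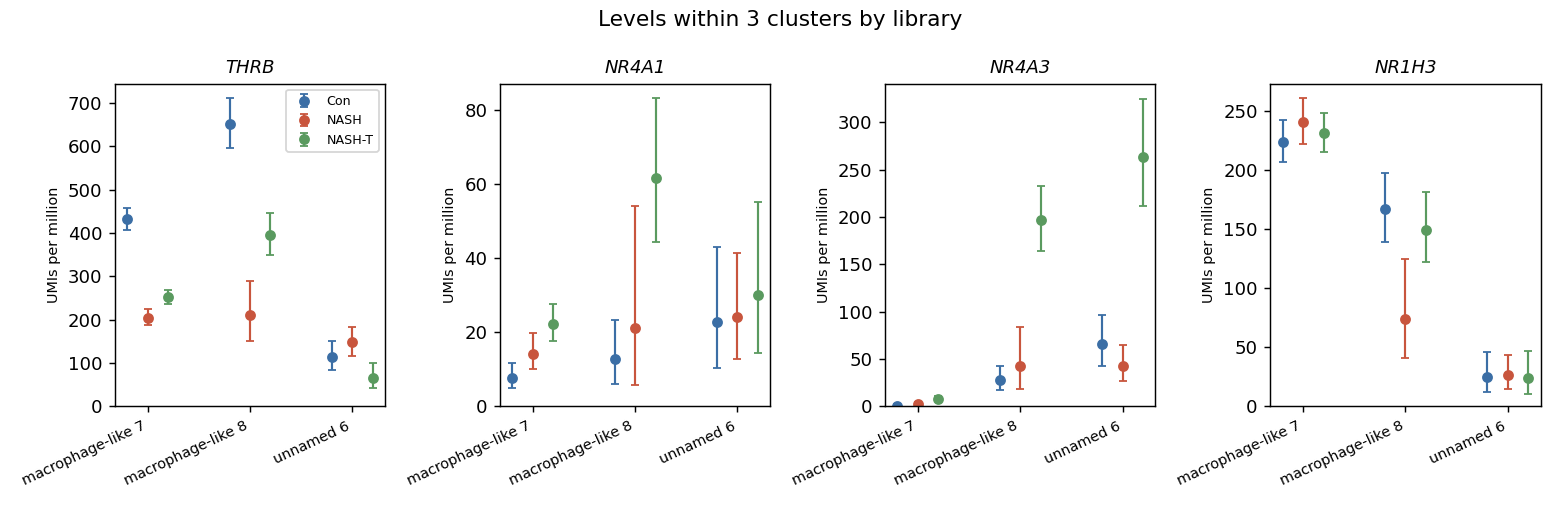
CPM of THRB, NR4A1, NR4A3 and NR1H3 in macrophage-like clusters 7 (led by MSR1 and TIMD4) and 8 (led by CPM and GPNMB) and in unnamed cluster 6; each point is 1 library and bars are 95% Poisson intervals. THRB is highest in Con in clusters 7 and 8, and NR4A3 is highest in NASH-T in all 3 clusters.

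In endothelial-like cells none of 22 receptors was called in NASH against Con (3.78% of all genes higher, 6.49% lower). In NASH-T against Con 1 of 25 was higher (4.37%) and 2 were lower (5.88%), and in NASH-T against NASH 4 of 25 were higher (4.86%) and none lower (3.93%). NR1D2 was 26.2, 36.5 and 45.7 CPM (NASH-T against Con 1.75, 1.06 to 3.03) and PPARG 92.4, 64.7 and 59.8 CPM (0.647, 0.476 to 0.887). NR4A1 was 75.8, 66.8 and 106 CPM (NASH-T against NASH 1.59, 1.195 to 2.13). Within the STAB2 cluster the NR4A1 ratio was 2.37 (1.61 to 3.58), and within the VWF cluster it was 0.799 (0.507 to 1.28), in the opposite direction. THRB was highest in Con here too but short of the call limit (ratios of 0.747 and 0.706 to Con). The VWF cluster, where THRB was higher, held 97, 77 and 135 of the 376, 551 and 1029 endothelial-like cells. The part of this mix in the THRB ratios was not tested, and THRB was also highest in Con within each cluster. RORA had ratios of opposite direction in the 2 endothelial clusters: NASH-T against Con was 0.530 (0.418 to 0.673) in the STAB2 cluster and 1.70 (1.07 to 2.80) in the VWF cluster. HNF4A, THRA, RORB and NR4A2 make up the remaining endothelial calls, each from 16 to 121 UMIs in NASH-T. HNF4A, from 18 UMIs in Con and 16 in NASH-T, lay within the background range given above.

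In stellate- or fibroblast-like cells 1 of 19 receptors was higher in NASH against Con (6.27% of all genes measured) and none lower (3.12%), and the call was THRA (13.9, 45.4 and 37.3 CPM) from 6 and 30 UMIs. In NASH-T against Con 2 of 17 were higher (4.91%), THRA and NR4A1, and none lower (3.3%). In NASH-T against NASH none of 19 was higher (3.76%) and 3 were lower (5.04%), NR1H2, NR5A2 and ESR1, each from 6 to 13 UMIs in NASH-T. Markers of other cells moved with these calls: in stellate-like cells the summed level of 15 endothelial markers was 197, 661 and 137 CPM, with 3, 2 and 3 of them at 0, and 5 of 15 hepatocyte transcripts were lower and none higher in NASH-T against NASH. Their part in these calls was not tested. NR2F1, NR2F2, RARB and NR1H4, the receptors that mark this class or its neighbours, were not called, with ratios between 0.798 and 1.32.

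In T cell-like cells RORA was even across the livers (ratios of 0.970 to 0.987). Of 21 receptors measured, NR6A1 was higher in NASH against Con (3.44% of all genes measured) and none was lower (3.59%). Of 23 receptors, PPARA, THRA and NR6A1 were higher in NASH-T against Con (3.47%) and none was lower (3.29%), and PPARA and NR2F2 were higher in NASH-T against NASH (4.34%) with none lower (3.26%). These receptors stood at no more than 30.7 CPM in T cell-like cells. PPARA, from 25, 18 and 56 UMIs (12.8, 10.9 and 21.2 CPM), lay within the background range given above, as did NR6A1 in Con (15.4 CPM). In NK-like cells RORA was 1327, 2039 and 1700 CPM, called higher in NASH against Con (1.54, 1.35 to 1.75). There 2 of 9 receptors were higher in that comparison (5.09%), RORA and NR1H2, and NR4A2 was lower (4.29%) from 25 and 4 UMIs. None of 10 was called in NASH-T against Con (4.43% higher, 3.77% lower) or in NASH-T against NASH (3.77% higher, 3.77% lower). The summed level of 13 T cell markers in NK-like cells was 3572, 3709 and 3520 CPM, beside 10440, 10160 and 10240 CPM in T cell-like cells. That of 6 NK markers in NK-like cells was 944, 753 and 997 CPM. The part of T cells or their RNA in the RORA call was not tested.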

How the data were processed

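Single-cell RNA-seq (10x Genomics) of 3 pooled goat livers was read. The deposited values are UMI counts per gene and barcode, made by the authors with Cell Ranger 7.0.0 per the submitters' processing notes; the sources used here do not give the genome build, the annotation or whether introns were counted. Cells with at least 200 genes, 500 UMIs and at most 20% mitochondrial UMIs were kept, and Scrublet in scanpy 1.11.5 (expected rate 0.06) removed 284, 342 and 459 doublets. Kept cells held 23752171, 29059323 and 27005297 UMIs. Clustering (2000 variable genes without the receptors, 30 components, 15 neighbours, Leiden resolution 0.8) gave 25 clusters, named from 20 marker sets, with 1 mixed and 2 unnamed clusters left out of the classes. Zone bands used 15 periportal and 12 pericentral genes. The zone test used edgeR 4.0.16 (filterByExpr, TMM, Benjamini-Hochberg over all genes tested, 0.05), with 2 residual degrees of freedom and DESeq2 1.42.0 as alternative; its SE is the log2 difference over the root of F. Scripts were tested on simulated data. Members, gene lists, markers and tests were chosen with earlier results of these data known. Every member is accounted for; of each gene list, up to 3 called genes per direction with the largest ratios may be named, and genes named beyond that were chosen after their values were seen. Intervals (exact Poisson, conditional binomial and binomial) cover counting error only.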

Additional observations from a re-analysis of the deposited data

How the results depend on the processing

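The count of 11 receptors highest in hepatocyte-like cells was the same under each of its alternatives. In hepatocyte-like cells, thinning every cell to 1000 UMIs gave 0 receptors higher in NASH against Con, 1 lower in NASH-T against Con and 2 higher in NASH-T against NASH. A 2-fold limit gave 0 higher in NASH against Con, 0 lower in NASH-T against Con and 0 lower in NASH-T against NASH. Scaling to the median ratio gave 1 higher and 1 lower in NASH-T against Con. In the clusters that every library fills, 1 was higher in NASH against Con, and 2 were higher and 1 lower in NASH-T against NASH; with receptors among the variable genes, 2 were higher in NASH-T against NASH. ESRRB in NASH against Con reversed to 2.09 when thinned (0.168 to 109.6), RORB in NASH-T against NASH to 1.90 in the clusters every library fills, and NR4A1 in endothelial-like cells to 0.799 in the VWF cluster. For the zone test, leaving out each library in turn gave 2 to 7 receptors higher and 2 to 4 lower in the pericentral band. DESeq2 gave 2 higher and 3 lower, and no filter on low counts gave 7 and 4. Cutting into 2 bands gave 4 and 2, as did thinned cells. Without the replicate block, which ties the bands of a library, 2 were higher and 3 lower. The causes were not tested. No paired analysis was possible between groups because each group is 1 library. Depth limits receptors under about 10 CPM, where a few UMIs decide a ratio.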
